A study of Mus musculus with 12 samples.

Results

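Features 105, 5733, 5422 and 9908 are 4 of the 18326 features in a table of molecule counts from single cells of mouse liver. They were chosen by number because their levels lay far apart between 2 times of day in these same data, with 105 and 5733 high at ZT22 and 5422 and 9908 high at ZT10. Zeitgeber time (ZT) counts the hours since the lights came on. The time difference chose the features, so it is given below as a description with no test. Their working name was clock-like. The files used here do not pair feature numbers with gene names, so that name could not be checked against the data, no gene is named, and no sequence is shown.

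Most liver cells keep a circadian clock, a feedback loop in which activating transcription factors switch on genes whose products later repress those same factors. Transcripts of the activating arm and of genes that it drives can peak at opposite times of day. The loop is known for daily rhythms in lipid, glucose and bile acid metabolism in the liver. Introns are removed in the nucleus, so reads that fall in introns come largely from transcripts that have not been spliced.

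The study's title concerns a difference between the sexes in the hepatic cycle of VLDL, the lipoprotein that carries fat out of the liver. All mice were wild-type 129S6/SvEv, and the 4 groups were females at ZT10, males at ZT10, females at ZT22 and males at ZT22, with 3 libraries each. No treatment is named, and the age of the mice is not given in the sources used here. Livers were perfused with collagenase, the cells were spun to enrich hepatocytes, frozen and thawed, and 10x Chromium v3 libraries were made, which tag each captured transcript with a unique molecular identifier (UMI). The enrichment for hepatocytes could not be checked, since markers need gene names. The labels do not say whether each library came from a separate mouse, so p-values measure only the spread between these libraries, which may be technical.

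The 12 libraries held 31003 cells and 100273202 UMIs, between 494 and 3949 cells and between 2284202 and 14654630 UMIs each. Of 30883 distinct cell barcodes, 120 occurred in more than 1 library. The library male ZT22 replicate 2 stood apart, with a median intronic fraction of 0.510 per cell against 0.211 to 0.319 in the others. The fraction is the authors' deposited value, and its denominator is not given in the sources used here. The cells of male ZT10 replicate 2 carried 2 library labels, whose difference is not stated, and were treated here as 1 library. The libraries' names in the cell metadata begin with a prefix whose meaning is not stated. The ZT10 libraries carried 3 prefixes and the ZT22 libraries 3 others, so prefix and time cannot be told apart. Levels below are UMIs of a feature per 1000000 UMIs outside the 13 mitochondrial features, written CPM, and intervals and limits cover counting error only.

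Feature 105 was close to silent at ZT10 and widely detected at ZT22. Its level at ZT22 was 94.6, 91.5 and 101.4 CPM in female replicates 1 to 3 and 78.3, 176 and 81.9 CPM in male replicates 1 to 3. The share of cells with a UMI was 20.2, 18.8 and 22.2% in the females and 21.5, 28.6 and 20.5% in the males. Male ZT22 replicate 2 was the high library on both scales, and the other 5 lay close together. At ZT10 the level was between 0.160 and 0.981 CPM, with 30 UMIs in 29 of 16848 cells. The fitted log2 difference, ZT22 minus ZT10, was 7.37 ± 0.30 (SE).

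Feature 5733 followed 105 closely at ZT22 and kept a higher level at ZT10. At ZT22 its level was 76.2, 79.2 and 85.9 CPM in female replicates 1 to 3 and 74.0, 170 and 86.9 CPM in the male ones. The share of cells with a UMI was 18.1, 17.4 and 19.7% in the females and 19.6, 28.1 and 22.4% in the males. As for 105, male ZT22 replicate 2 was the high library. At ZT10 the level was 4.12, 13.96 and 1.75 CPM in the females and 1.73, 3.52 and 3.00 CPM in the males. Female ZT10 replicate 2 stood above the other 5 there, with a UMI of 5733 in 4.86% of its cells. The fitted log2 difference between the times was 4.58 ± 0.39.

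Feature 5422 was the most abundant of the 4 and the one with the widest spread in CPM at its high time. At ZT10 its level was 93.1, 60.02 and 194 CPM in female replicates 1 to 3 and 132, 124 and 166 CPM in the male ones. The share of cells with a UMI was 21.4, 18.7 and 32.8% in the females and 33.4, 35.4 and 34.1% in the males. The highest value, 194 CPM, and the second, 166 CPM, came from replicate 3 of either sex, which share a name prefix. The lowest came from female ZT10 replicate 2, the library with the most 5733 at that time. At ZT22 the level was between 1.42 and 3.42 CPM, with 98 UMIs in 98 cells. The fitted log2 difference between the times was -5.63 ± 0.34.

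Feature 9908 was the rarest. At ZT10 its level was 18.3, 15.6 and 19.6 CPM in female replicates 1 to 3 and 6.83, 8.55 and 13.6 CPM in the male ones. The share of cells with a UMI was 4.56, 4.86 and 3.92% in the females and 2.18, 3.04 and 3.09% in the males. At ZT22 the level was between 0 and 0.979 CPM, with 24 UMIs in 23 of 14155 cells. Male ZT22 replicate 2 had none in 2672 cells, which allows a share of up to 0.112%. The fitted log2 difference between the times was -4.37 ± 0.37.

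For the time contrast averaged over the sexes, 7.82% of the 12505 features tested were called by edgeR's quasi-likelihood test at an adjusted p under 0.05. The members are not counted against this share, because the contrast chose them. By mean TMM-scaled level at the high time, 5422 ranked 1227, 105 ranked 1525, 5733 ranked 1659 and 9908 ranked 6852 among those 12505 features. Levels of different features are compared here per UMI and not per transcript length, since lengths need gene names.

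**Figure D1:**
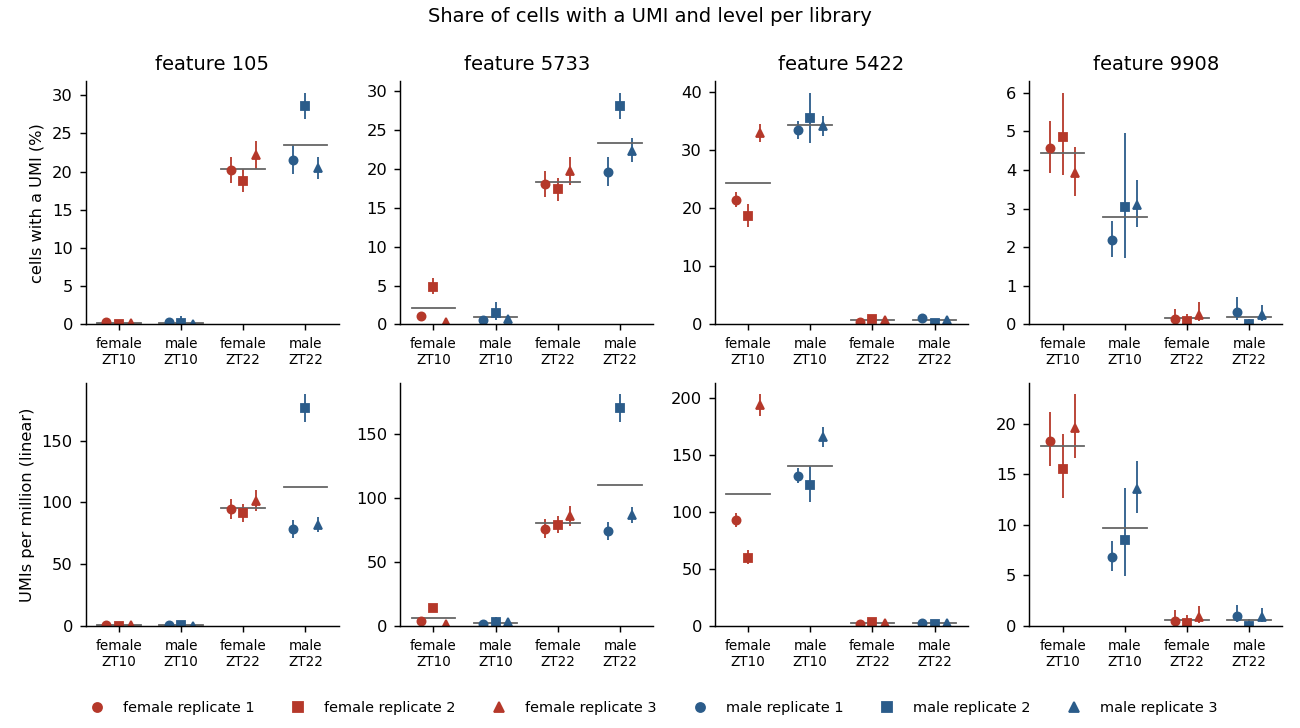
Share of cells with a UMI (upper row, percent) and level (lower row, UMIs per 1000000 outside the mitochondrial features, linear) of the 4 features in each of the 12 libraries. Points are libraries with 95% counting intervals, grey lines are group means. Features 105 and 5733 are high in the 6 ZT22 libraries and highest in male replicate 2, with 176 and 170 CPM, and features 5422 and 9908 are high in the 6 ZT10 libraries.

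A share of cells with a UMI depends on how many UMIs a cell has, so the mean chance of a UMI was also computed for a draw of 2000 UMIs per cell. At ZT22, 9426 of 14155 cells had that many, which left out 2241 female and 2488 male cells. At ZT10, 11517 of 16848 did, which left out 3286 female and 2045 male cells. At this depth feature 105 was expected in 17.9, 17.7 and 18.4% of the cells of female ZT22 replicates 1 to 3 and in 15.1, 30.2 and 15.4% of the male ones. Feature 5733 was expected in 14.99, 14.4 and 15.7% and in 13.5, 30.6 and 16.6%. Male ZT22 replicate 2 thus stayed the high library for both, with a wider gap than in the shares as counted. The draw kept 44.6% of the cells of this library, against 62.3 to 81.5% in the other ZT22 libraries. Its value therefore describes its deeper cells only.

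For the ZT10 features the same draw gave 16.8, 10.6 and 30.1% for 5422 in the female replicates and 23.6, 21.6 and 27.6% in the male ones. For 9908 it gave 3.68, 2.79 and 3.9975% in the females and 1.24, 1.37 and 2.79% in the males. For 9908 the lowest female and the highest male library then stood level. For 5422 all 3 male libraries went from above female replicate 3 to below it. As counted they were at 33.4, 35.4 and 34.1%, against 32.8% in that female library. The draw kept 47.8% of the cells of female ZT10 replicate 3, against 64.3 to 81.3% in the other ZT10 libraries. The value of female ZT10 replicate 3 therefore describes its deeper cells only.

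The sexes did not pass the test for any member at its high time. At ZT22 the log2 difference, female minus male, was -0.08 ± 0.27 for 105 (adjusted p = 0.889) and -0.31 ± 0.43 for 5733 (adjusted p = 0.706), while edgeR called 3.77% of all features tested. At ZT10 it was -0.29 ± 0.36 for 5422 (adjusted p = 0.929) and 0.86 ± 0.38 for 9908 (adjusted p = 0.465), where 2.42% of features were called. The difference of 9908 had an unadjusted p of 0.0391 and held its direction in each alternative run, with adjusted p between 0.133 and 0.863. Within the prefix shared by female replicates 1 and 2 and male replicate 1, 9908 was at 18.3 and 15.6 against 6.83 CPM, and within that shared by both replicates 3 it was at 19.6 against 13.6 CPM. The remaining ZT10 prefix holds male replicate 2 alone. With the prefix as a block the log2 difference was 0.97 ± 0.46 (adjusted p = 0.823).

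With the prefix as a block, the other differences between the sexes were -0.35 ± 0.37 for 5422 at ZT10, -0.03 ± 0.38 for 105 and -0.25 ± 0.58 for 5733 at ZT22, none of which passed. The sign for 105 at ZT22 turned to 0.24 ± 0.21 without male ZT22 replicate 2, and that for 5422 at ZT10 to 0.03 ± 0.34 without female ZT10 replicate 2. Averaged over both times, where 5.26% of features were called, the members lay between -0.03 ± 0.33 for 5422 and 0.51 ± 0.36 for 5733, with adjusted p of 0.478 or more. The value of 5733 rested on female ZT10 replicate 2, without which it was -0.02 ± 0.28.

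The size of the time difference was compared between the sexes by an interaction term. It was -0.39 ± 0.66 for 105, -1.64 ± 0.73 for 5733, 0.54 ± 0.64 for 5422 and -1.06 ± 0.86 for 9908, with adjusted p of 0.842 or more. For this term 0% of all features were called by edgeR, and 739 had an unadjusted p under 0.05. DESeq2 called 10 features and limma-voom 0, with 767 and 770 below that unadjusted p. Neither tool called a member. The unadjusted p of 5733 was 0.0411 in edgeR, 0.0306 in DESeq2 and 0.121 in limma-voom. Its interaction depended on single libraries, and leaving out 1 library at a time gave values between -2.09 and -0.60. The standard errors are wide, and a dependence of the time difference on sex of 1 log2 unit is within 1 SE of the value for each of the 4 members.

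The members were then described across the cells of each library, ranked into terciles (lower, middle and upper, of equal cell number) by the intronic fraction, the mitochondrial percent or the number of UMIs of the cell. Upper and lower terciles of the same library were compared with library as a block, over the 6 libraries of the high time. These terciles were not used to choose the features. The tests were scaled by TMM, which sets the typical feature near 0. Without that scaling the median log2 difference over all features moved to 0.32 at ZT22 and 0.13 at ZT10 for the intronic fraction, and to -0.41 and -0.24 for the mitochondrial percent. For UMIs per cell it moved to -0.16 at ZT22 and stayed at -0.003 at ZT10.

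The 2 ZT22 features rose together with the intronic fraction of the cell. In the lower tercile feature 105 was at 36.4 to 115.9 CPM over the 6 libraries, with a median of 45.6, and in the upper tercile at 110.3 to 229.7, with a median of 138. Feature 5733 went from 34.7 to 93.8 CPM, median 41.0, to 105.8 to 228.4 CPM, median 129. Each of the 6 libraries had more of both in its upper tercile. The log2 differences were 1.21 ± 0.12 for 105 (adjusted p = 6.23e-09) and 1.24 ± 0.11 for 5733 (adjusted p = 1.59e-09).

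Changes with the intronic fraction were common, since edgeR called 67.1% of the features tested at ZT22, 33.6% of all as higher and 33.5% as lower in the upper tercile. Being called is therefore near the rule, and it is the size that places these features: 97.1% of the features had a lower log2 difference than 105 and 97.6% a lower one than 5733. At equal depth, the share of cells expected to hold a UMI rose by 15.2 ± 3.8 percentage points for 105 and 14.4 ± 2.7 for 5733 (SD, n = 6 libraries). It rose in 6 of 6 libraries for each (exact two-sided sign-flip test, p = 0.0312, the smallest that 6 libraries can give, and 0.0357 adjusted over 8 tests). In every library of either time, the draw kept more cells of the upper tercile than of the lower one. The gap was widest in male ZT22 replicate 2, with 184 lower and 687 upper cells. The shares compared therefore come from unequally selected cells.

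Feature 5422 went the other way. Its lower tercile by intronic fraction was at 73.8 to 227.4 CPM over the 6 ZT10 libraries, median 158, and its upper tercile at 45.9 to 169.4 CPM, median 104. The upper tercile was lower in each of the 6 libraries, with a log2 difference of -0.68 ± 0.09 (adjusted p = 2.0e-06). At equal depth its share of cells fell by 7.35 ± 2.87 percentage points, in 6 of 6 libraries (exact sign-flip test, p = 0.0312).

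Feature 9908, high at the same time as 5422, rose with the intronic fraction. It was at 3.61 to 17.3 CPM in the lower tercile and 8.08 to 31.8 CPM in the upper tercile, higher in 6 of 6 libraries, with a log2 difference of 0.80 ± 0.19 (adjusted p = 0.00107). At equal depth its share of cells rose by 1.80 ± 1.24 percentage points, in 6 of 6 libraries (exact sign-flip test, p = 0.0312). At ZT10, 65.1% of features were called, 32.4% as higher and 32.7% as lower, 86.6% of features had a lower log2 difference than 9908, and 14.2% a lower one than 5422. The ZT10 pair therefore fell on both sides of the typical feature, while the ZT22 pair fell on the same side. Taking terciles within bins of the other measures left 1.11 for 105, 1.04 for 5733, -0.66 for 5422 and 0.60 for 9908. A difference of this contrast between the sexes was called for no member (adjusted p of 0.815 or more), against 0.0106% of features at ZT22 and 0.159% at ZT10.

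**Figure D2:**
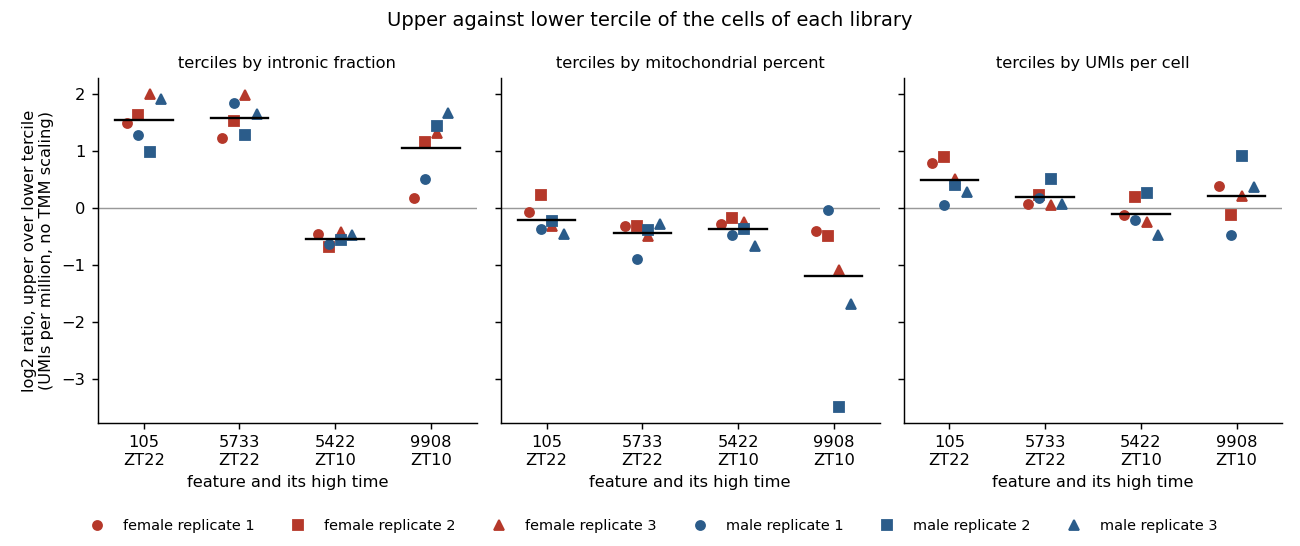
Log2 ratio of the level in the upper tercile of cells over that in the lower tercile, per library, with the cells of each library ranked by intronic fraction, mitochondrial percent or UMIs per cell. Points are the 6 libraries of each feature's high time, black lines their mean, and values are without TMM scaling and with 0.5 UMIs added to each sum. By intronic fraction all 6 libraries are above 0 for 105, 5733 and 9908 and below 0 for 5422.

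Fixed bins of the intronic fraction put all libraries on a common scale. With the 6 ZT22 libraries summed, feature 105 rose from 21.1 CPM in cells under 0.1 through 50.5, 88.7, 132 and 168 CPM to 208 CPM in cells at or above 0.5. Feature 5733 rose in the same bins from 24.8 through 44.2, 82.8, 113 and 155 to 211 CPM. The last bin rests mostly on male ZT22 replicate 2, which holds 1414 of its 1619 cells. Feature 5422 fell over the ZT10 libraries from 198 through 170, 124, 108 and 99.5 to 80.2 CPM. Feature 9908 rose from 5.77 CPM, resting on 6 UMIs in 411 cells, through 10.4, 13.3, 15.6 and 22.4 to 19.8 CPM, and its last bin held 229 cells.

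The bins also place male ZT22 replicate 2, the library with the highest levels of 105 and 5733 and with the most intronic signal. Averaged with equal weight over the 3 bins from 0.2 to 0.5, which all 6 libraries filled with at least 20 cells, its level of 105 was 126 CPM. The other 5 libraries were between 102 and 165 CPM on that scale. For 5733 it was 98.9 CPM, below the 117 to 125 CPM of the other 5. In these bins this library was thus not the high one for either feature, although its level over all cells was 176 and 170 CPM. Of its 2672 cells, 1414 were at or above 0.5 and so outside this comparison. These equal-bin means weigh a bin of few UMIs like any other and carry no interval, so the order of the libraries was not tested.

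For 5422, over the 4 bins from 0.1 to 0.5, female replicates 1 to 3 stood at 85.7, 59.5 and 180 CPM and male replicates 1 to 3 at 133, 134 and 155 CPM, against 93.1, 60.02, 194, 132, 124 and 166 CPM over all cells. The order of the highest and the lowest libraries was the same with the bins held. For 9908 the equal-bin means were 19.0, 16.1 and 29.9 CPM in the females and 7.65, 8.28 and 17.2 CPM in the males, so male replicate 3 then lay above female replicate 2.

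**Figure D3:**
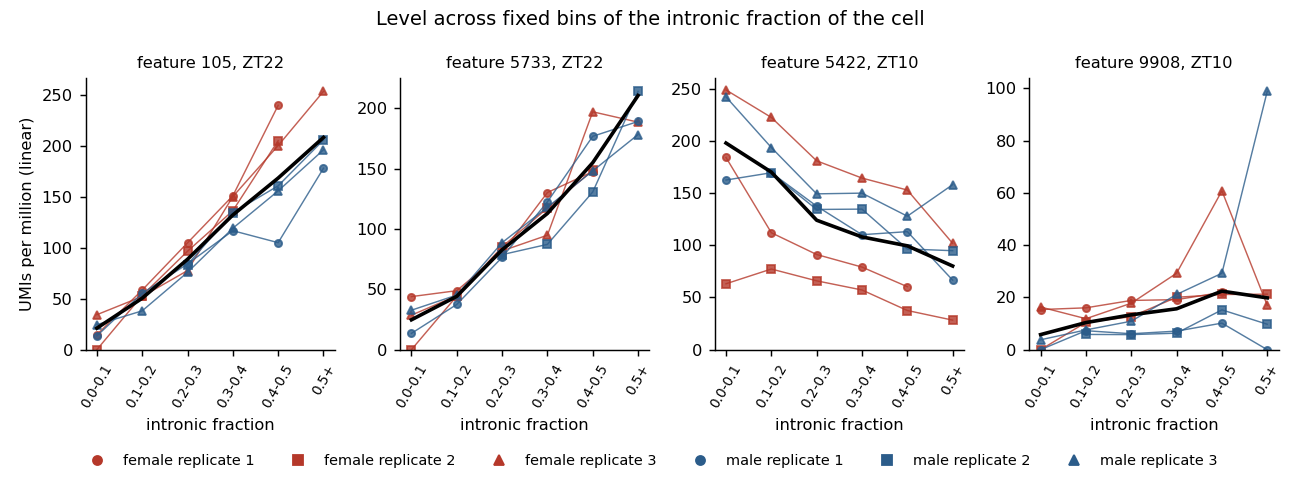
Level (UMIs per 1000000 outside the mitochondrial features, linear) in bins of the deposited intronic fraction of the cell, for the 6 libraries of each feature's high time. Coloured lines are libraries, shown where a bin holds at least 20 cells, and the black line is their sum. Features 105 and 5733 rise in the sum to 208 and 211 CPM in the last bin, where male replicate 2 holds 1414 of 1619 cells, and 5422 falls from 198 to 80.2 CPM with the libraries at different heights.

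By mitochondrial percent, features 105, 5733 and 5422 did not pass the test with TMM scaling. At ZT22 edgeR called 27.1% of features between the terciles and at ZT10 32.7%. The lower tercile of 105 was at 79.6 to 187 CPM, median 97.9, and the upper tercile at 70.5 to 159 CPM, median 90.6, higher in 1 of 6 libraries. The log2 difference was 0.15 ± 0.12 for 105 (adjusted p = 0.393), -0.08 ± 0.10 for 5733 (adjusted p = 0.595) and -0.15 ± 0.08 for 5422 (adjusted p = 0.194). These values depend on the scaling and on the cells: in the main population, defined with the clusters below, 105 was at -0.19 ± 0.07 (adjusted p = 0.0894) and 5733 fell by 0.29 ± 0.09 (adjusted p = 0.0264). Without TMM scaling 105 changed sign to -0.22 ± 0.11 (adjusted p = 0.0885), 5733 fell by 0.45 ± 0.10 (adjusted p = 0.00333) and 5422 fell by 0.39 ± 0.10 (adjusted p = 0.0013).

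Feature 9908 was lower in mitochondria-rich cells. It was at 7.03 to 32.3 CPM in the lower tercile and at 0 to 17.7 CPM in the upper tercile, lower in 6 of 6 libraries, with a log2 difference of -0.58 ± 0.18 (adjusted p = 0.0194), and 9.43% of features had a lower value. It missed the threshold without female ZT10 replicate 3 (adjusted p = 0.0875), without male ZT10 replicate 3 (adjusted p = 0.0915) and in DESeq2 (adjusted p = 0.0768). The libraries differed in shape. From the lower through the middle to the upper tercile, the female replicates went 23.7, 12.7 and 17.7, then 20.6, 12.1 and 14.7, then 32.3, 11.6 and 15.04 CPM. The male replicates went 7.03, 6.60 and 6.85, then 10.3, 13.5 and 0, then 22.8, 12.5 and 7.02 CPM. Male replicate 1 was thus nearly flat, and the females had their lowest value in the middle.

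At equal depth, the share of cells expected to hold a UMI was lower in the upper tercile by mitochondrial percent in 6 of 6 libraries for 105, 5733 and 5422. The mean difference was -4.98 ± 1.46 percentage points for 105, -6.39 ± 1.64 for 5733 and -4.43 ± 3.29 for 5422 (SD, n = 6 libraries, exact two-sided sign-flip test, p = 0.0312 each). For 9908 it was -1.90 ± 1.86 points, lower in 5 of 6 libraries (exact test, p = 0.0625). A difference of this contrast between the sexes was called for no member (adjusted p of 0.969 or more) and for 0% of features at either time. The draw kept the terciles unequally here too. It kept 303 lower and 697 upper cells in female ZT22 replicate 2, but 498 and 290 in male ZT22 replicate 2. The equal-depth shares carry no TMM scaling, and their mean directions are those of the unscaled levels. Single libraries differed. In female ZT22 replicate 2 the level of 105 rose from 79.6 to 93.3 CPM while its share fell. In male ZT10 replicate 1 the level of 9908 fell from 7.03 to 6.85 CPM while its share rose.

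By the number of UMIs per cell, feature 105 was at 53.4 to 153 CPM in the lower tercile and 76.9 to 202 CPM in the upper tercile, higher in 6 of 6 libraries. Its log2 difference was 0.65 ± 0.14 (adjusted p = 0.0023) and that of 5733 0.37 ± 0.11 (adjusted p = 0.0172), where edgeR called 27.8% of features. Both were lost when the clusters set apart, described below, were left out: 0.10 ± 0.10 for 105 (adjusted p = 0.774) and -0.02 ± 0.11 for 5733 (adjusted p = 0.969). The call of 5733 was also lost without female ZT22 replicate 1 (adjusted p = 0.0547) and without male ZT22 replicate 1 (adjusted p = 0.0627). Apart from leaving out libraries, and with the main population included, 6 alternatives of both features together kept the call. Another 5 lost it with the same sign, and 1 changed sign.

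At ZT10, where 7.82% of features were called by UMIs per cell, neither member passed. Feature 5422 was at -0.15 ± 0.09 (adjusted p = 0.373) and 9908 at 0.17 ± 0.18 (adjusted p = 0.638). For both ZT22 features the middle tercile was the highest in 5 of 6 libraries. The exception was male ZT22 replicate 2, where 105 went from 153 through 158 to 202 CPM and 5733 from 134 through 169 to 192 CPM. A difference of this contrast between the sexes was called for no member (adjusted p of 1 each), against 0.0316% of features at ZT22 and 0.0104% at ZT10.

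The cells were grouped into 7 clusters, which stay unnamed. Clusters 1 to 4 form a main population of 26849 cells, 86.6% of all, and clusters 5 to 7 were set apart by how far their leading features exceeded all other cells. The clusters come from the same counts, so levels by cluster are a description. At ZT22 feature 105 was at 105, 128, 126 and 58.1 CPM in clusters 1 to 4 and at 84.5 CPM in cluster 6. In cluster 5, with 1350 ZT22 cells, it was at 6.70 CPM, with a UMI in 1.04% of cells against 11.1% in cluster 4. The median cell had 1562.5 UMIs outside the mitochondrial features in cluster 5 and 1886 in cluster 4, so the gap in the share is wider than the difference in depth. Of its 15 UMIs there, 3 came from the 25 cells of male ZT22 replicate 2, at 68.5 CPM, and the other 5 libraries were at 0 to 9.03 CPM.

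Feature 5733 was less unequal across the same clusters. It stood at 88.5, 125, 117 and 56.7 CPM in clusters 1 to 4, 69.7 CPM in cluster 6 and 40.2 CPM in cluster 5, where the libraries lay between 24.1 and 50.4 CPM. So cluster 5 held 5733 in 6.37% of its ZT22 cells and 105 in 1.04% of them, while in clusters 1 to 4 and 6 the levels of the 2 features lay closer together. At a share as low as that of 105 in cluster 5, UMIs of the cells and of free RNA cannot be told apart.

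Feature 5422 was found in every cluster at ZT10, at 115, 146, 113 and 136 CPM in clusters 1 to 4, 188 CPM in cluster 5, 165 CPM in cluster 6 and 35.4 CPM, or 7 UMIs, in cluster 7. In cluster 5 the libraries ranged from 53.1 to 259 CPM, and it was not the highest cluster in female ZT10 replicate 2 or in male ZT10 replicate 3. Cluster 7 held 75 cells at ZT10, 98.7% of them from male ZT10 replicate 2, so it may be that library and not a kind of cell. Feature 9908 was at 25.1 CPM in cluster 2 and at 6.31 to 12.04 CPM in clusters 1 and 3 to 6. In cluster 2 the females were at 28.8, 25.5 and 40.5 CPM and the males at 9.26, 17.3 and 29.3 CPM.

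**Figure D4:**
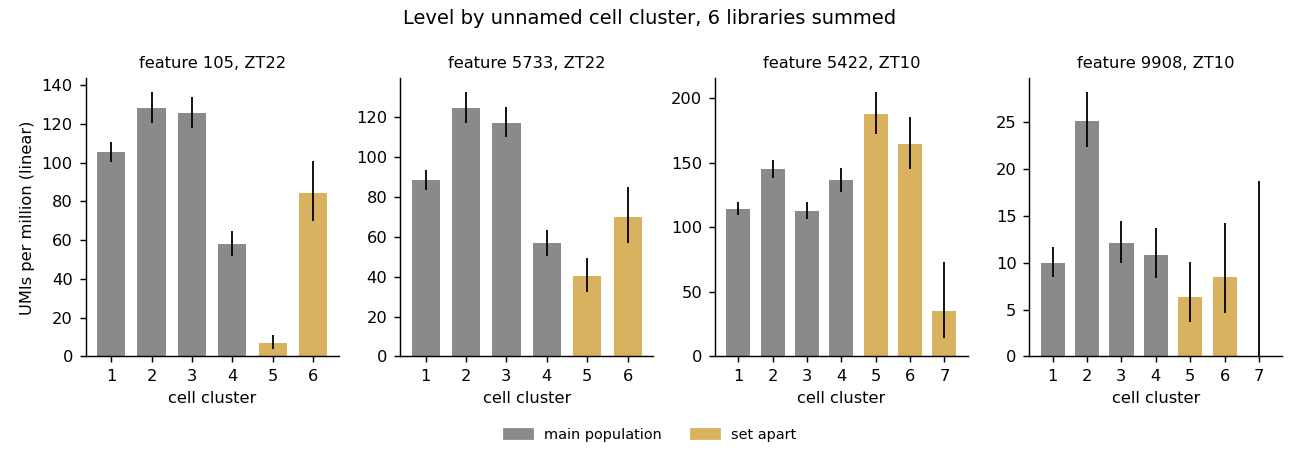
Level (UMIs per 1000000 outside the mitochondrial features, linear, from 0) by unnamed cell cluster, with the 6 libraries of the high time summed and 95% counting intervals that do not cover the spread between libraries. Clusters with fewer than 50 cells at that time are left out. Feature 105 is at 6.70 CPM in cluster 5 and at 58.1 CPM or more in the others, while 5422 is at 188 CPM there.

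The spread of a member's UMIs over the cells of a library was set beside that of 1 common rate per UMI. At ZT22, 3118 cells held 105 against 3369 expected of 1 rate, a ratio of 0.926 ± 0.023 (SD over 6 libraries), and 679 cells held 2 or more against 519 expected. For 5733 the ratio was 0.9504 ± 0.028, with 554 cells of 2 or more against 458. Feature 5422 was the most even, at 0.996 ± 0.018 and 1010 cells against 1013. Feature 9908 was the least even in cells of 2 or more, 49 against 16.6 expected, with a ratio of 0.938 ± 0.048. Its libraries differed, with observed over expected cells of 2 or more between 0.839 and 4.46. The lowest, male ZT10 replicate 1, had 1 such cell against 1.19 expected, and the highest, male ZT10 replicate 2, had 2 against 0.448. The most UMIs found in a single cell were 6 for 105 and for 5422, 5 for 5733 and 4 for 9908.

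Features 105 and 5733 were found in the same cell slightly more often than depth alone would place them. At ZT22, 900 cells held both, against 797 expected if the features were independent within deciles of depth of each library, a ratio of 1.13 (95% counting interval 1.06 to 1.21). The 6 libraries gave 1.20, 1.13 and 1.18 in female replicates 1 to 3 and 1.23, 1.02 and 1.16 in the male ones, all above 1. Male ZT22 replicate 2 was the lowest, and without it the ratio was 1.18. Without any account of depth it would be 1.33, so most of the raw excess went with the number of UMIs per cell.

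Binning cells by intronic fraction and mitochondrial percent as well as depth brought the ratio to 1.03 (0.967 to 1.10), with 871 cells expected. Binning by cluster and depth gave 1.07 (1.00 to 1.14). The excess of 105 and 5733 in the same cells was therefore not distinguishable from counting error once depth, intronic fraction and mitochondrial percent were held together.

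For the ZT10 pair no excess was detectable. Features 5422 and 9908 shared 200 cells against 196 expected at equal depth, a ratio of 1.02 (0.882 to 1.17), and the libraries lay between 0.884 and 1.11. Members of opposite phase rarely met, and few cells held the feature of the other time. At ZT10, 55 cells held both 5733 and 5422, against 55.5 expected (0.991, 0.747 to 1.29). In female ZT10 replicate 2, which had the most 5733 and the least 5422, 17 cells held both, against 19.5 expected (0.873, 0.509 to 1.40), so neither an excess nor a deficit of such cells was detectable at this depth. At ZT22, 20 cells held 105 and 5422 against 23.7 expected, and 25 held 5733 and 5422 against 22.005. Features 5733 and 9908 shared 15 cells against 10.1 at ZT10 (1.48, 0.831 to 2.45) and 8 against 4.94 at ZT22 (1.62, 0.699 to 3.19). Features 105 and 5422 shared 11 cells against 9.19 at ZT10, and 105 and 9908 shared 3 against 1.20 there and 5 against 5.03 at ZT22. The intervals of all these opposite-phase ratios include 1.

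**Figure D5:**
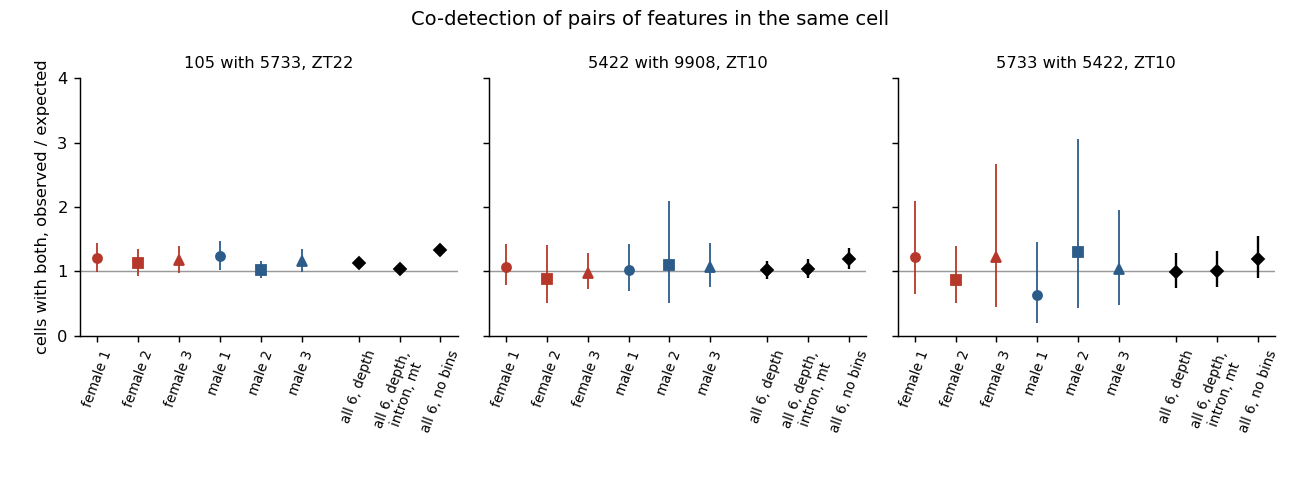
Number of cells holding both features of a pair, divided by the number expected if the features were independent, for 105 with 5733 at ZT22 and for 5422 with 9908 and 5733 with 5422 at ZT10. Coloured points are libraries with expectation within deciles of depth, black diamonds are sums over the 6 libraries with 3 ways of binning, and bars are 95% Poisson intervals of the observed count. The pair 105 and 5733 is at 1.13 with depth held and at 1.03 with intronic fraction and mitochondrial percent (mt) held too.

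The few cells that held a member at its low time were also described. At ZT10 the 81 cells of female replicate 2 with 5733 had a median of 4238 UMIs outside the mitochondrial features against 3208 in all its cells, and a median intronic fraction of 0.328 against 0.295. Of those 81 cells, 45 were in the deepest tercile of the library and 3 in the clusters set apart, which are described above. Cells picked for holding a UMI tend to be deeper by that choice, so their depth does not mark a kind of cell. With 1 common rate per UMI, 84.0 cells with 5733 were expected in this library against the 81 found. Of the 98 cells with 5422 at ZT22, 8 came from male ZT22 replicate 2. None of the 98 had more than 1 UMI. With 1 common rate per UMI, only 0.0133 to 0.122 such cells were expected in each library, so their absence describes the low level alone. The shares with 5422 at ZT22 were between 0.299 and 1.02% of cells in each library, at or below that of 105 in cluster 5. At such shares, UMIs of the cells and of free RNA cannot be told apart.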

How the data were processed

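Raw UMI counts of 18326 features in 31003 cells were deposited by the authors together with cell metadata. These hold, per the file headers, the total UMI count of a cell, its intronic fraction and its percent of mitochondrial UMIs. Cell Ranger 6.1.2, Seurat and the build mm10 are listed in the submitters' processing notes, and cell filters are not given in the sources used here. The column sums and the mitochondrial percent, as 13 features, equalled the metadata in all 31003 cells. Columns of other samples numbered 0.

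The members, lists and alternatives were chosen with earlier results of these data known. Only the 4 members are given by number. Counts of all deposited cells were summed per library, or per library and tercile, and tested with edgeR 4.0.16 (quasi-likelihood, TMM, filterByExpr, Benjamini-Hochberg over all features, threshold 0.05). DESeq2 1.42.0 and limma 3.58.1 were alternatives. A difference is written ± its SE unless SD is named. Mitochondrial features were left out of the terciles. Clusters were rebuilt with scanpy 1.11.5 and igraph 0.11.9 (2000 variable features, 8 components, 15 neighbours, resolution 0.3), and a cluster whose 10 leading features had a median fold above 8 was set apart. No doublet caller was run and no cell was removed. Shares carry 95% exact binomial intervals, and the limit of a count of 0 is 3 counts. Fits and equal-depth shares were checked on simulated data. Replicate numbers are shared between groups, and the labels do not say what they mark. Deviations of same-numbered female and male libraries from their group means correlated at 0.211, 0.222 and 0.349 at ZT10 (Pearson's r over 7357 features, which are not replicates) and at 0.057, -0.166 and -0.067 at ZT22.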

Additional observations from a re-analysis of the deposited data

Results flagged for a closer look

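Of 24 sets of 6 libraries examined (4 features, 2 times, 3 scales), 8 held a library far from the other 5 by Dixon's test at the 95% level, which chance does in about 1 in 20 sets, and the 3 scales of a feature are not independent. Male ZT22 replicate 2 was far above the others for feature 105 with 176.2 CPM against 78.3 to 101.4, with 28.59% of cells against 18.8 to 22.2%, and with 127.6 TMM-scaled CPM against 72.2 to 91.8. The same library was far above for feature 5733 with 170.2 CPM against 74.0 to 86.9, and with 123.2 TMM-scaled CPM against 69.8 to 76.6. Its median intronic fraction was 0.510, and in matched bins from 0.2 to 0.5, which leave out 1414 of its 2672 cells, it lay within the range of the other libraries for 105 and below it for 5733. The means over these bins carry no interval.

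Female ZT10 replicate 2 was far above the other ZT10 libraries for feature 5733, with 13.96 CPM against 1.73 to 4.12, 4.859% of cells against 0.357 to 1.42%, and 11.5 TMM-scaled CPM against 1.41 to 3.57. No difference of a member between the sexes in the effect of time or of a tercile passed its test.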

How the results depend on the processing

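The contrasts by intronic fraction kept their direction and their side of the threshold under each alternative run, and without 1 library at a time lay between 1.12 and 1.33 for 105, 1.17 and 1.304 for 5733, -0.70 and -0.66 for 5422, and 0.63 and 1.05 for 9908. By mitochondrial percent, dropping TMM scaling gave -0.22 for 105, -0.45 for 5733 and -0.39 for 5422, the main population gave -0.19 for 105 (adjusted p = 0.0894) and -0.29 for 5733 (adjusted p = 0.0264), and balanced terciles gave 0.0545 for 5733. The equal-depth share gave -4.98, -6.39, -4.43 and -1.90 percentage points for 105, 5733, 5422 and 9908. For 9908 DESeq2 gave -0.61, and leaving out 1 library gave -0.68 to -0.43. By UMIs per cell, the main population gave 0.10 for 105, -0.0218 for 5733 and -0.25 for 9908. For 5733 no TMM scaling gave 0.19, a split at the median 0.1995, balanced terciles 0.14, DESeq2 0.39, and leaving out 1 library 0.32 to 0.39, and a split at the median gave -0.10 for 9908. The causes of these changes were not tested.

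Among differences that missed the threshold throughout, the main population turned the sign to 0.10 for the sex difference of 105 at ZT22, 0.0393 for that of 5422 averaged over time and 0.10 for the interaction of 105. Leaving out 1 library gave -0.23 to 0.24 for 105 at ZT22 and -0.88 to 0.0259 for 5422 at ZT10. For averages over time it gave -0.13 to 0.52 for 105, -0.0186 to 0.73 for 5733 and -0.32 to 0.13 for 5422, and for the interaction of 105 it gave -1.20 to 0.10. With the replicate number as a block, the sex difference at ZT10 was -0.40 for 5422 and 0.96 for 9908, and the block changed no call of a member.

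The number of UMIs drawn sets the equal-depth share, which at 1000 and 3000 UMIs was 9.06 and 28.04% for 105, 8.58 and 24.9% for 5733, and 11.98 and 30.2% for 5422, and at 1000 was 1.26% for 9908. Co-detection without depth bins was 1.33 for 105 with 5733 and 1.19 for 5422 with 9908, and with depth, intronic fraction and mitochondrial percent held 1.03 for 105 with 5733. No equal-depth share was tested between terciles of UMIs per cell, because in some libraries the lower tercile held no cell of 2000 UMIs. Without TMM scaling the calls by mitochondrial percent at ZT22 went from 1339 higher of 2563 to 676 of 5779.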
